A study of Mus musculus with 8 samples.

Results

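The genes described here mark nerve and Schwann lineage cells of the heart. They are Ngfr, Sox10, Fabp7, Th, Dbh, Prph and Tubb3, and all 7 were found by Ensembl identifier among the 53465 genes of the deposited table. The set was chosen by a result in these libraries, the lower Ngfr level in the mutant group, to ask whether nerve-associated cells were fewer. The comparison of the groups is therefore a description for these genes and carries no test. RNA-seq was performed on ventricles of mouse embryos at embryonic day 15.5, with 1 ventricle per replicate according to the design text. The 4 WT libraries were compared with 4 libraries of genotype Nrg-1flox;Cdh5-CreERT2. Nrg-1 (Nrg1) encodes the growth factor neuregulin-1. Cdh5-CreERT2 is a tamoxifen-inducible Cre recombinase expressed from the promoter of the endothelial cadherin gene, so neuregulin-1 made by other cells, nerves included, was not targeted. Tamoxifen dose and timing, and whether WT embryos received it, are not given in the sources used here.

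Neural crest cells migrate into the heart and give rise to the neurons and glia of its autonomic nerves. Schwann cell precursors travel along growing axons and depend on axonal neuregulin-1, which they sense through ErbB3 paired with ErbB2. The transcription factor Sox10 marks crest and glial cells. Fabp7 encodes a brain-type fatty acid binding protein of immature glia, and Ngfr encodes p75NTR, a neurotrophin receptor found on crest cells, Schwann cell precursors and sympathetic neurons. Tyrosine hydroxylase (Th) and dopamine beta-hydroxylase (Dbh) are enzymes of noradrenaline synthesis in sympathetic neurons. Peripherin (Prph) is an intermediate filament of peripheral neurons, and Tubb3 encodes a tubulin of neurons. Ngfr is also made by some mesenchymal, mural and epicardial cells, so it does not define nerve cells alone.

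The sequences before the RefSeq start sites of Ngfr, Fabp7 and Th are shown because they contrast the receptor that led to this set with a glial and a sympathetic marker. Sequences came from RefSeq (GRCm38.p6), and 6 of the 7 genes, all but Sox10, were matched in the table used. The 250 bases before each start were searched on both strands for GGGCGG (a GC box), CAGCTG (an E-box), TGACGTCA (a cyclic AMP response element) and the SOX cores ACAAAG and ACAATG. Bases next to the start that GENCODE places in an exon of the same gene are left out of the print, 37 for Ngfr, 42 for Fabp7 and 19 for Th. The sequences read 5′ to 3′ on the gene's strand, and capitals mark the matches.
Ngfr, chr11:95587736-95587948, minus strand: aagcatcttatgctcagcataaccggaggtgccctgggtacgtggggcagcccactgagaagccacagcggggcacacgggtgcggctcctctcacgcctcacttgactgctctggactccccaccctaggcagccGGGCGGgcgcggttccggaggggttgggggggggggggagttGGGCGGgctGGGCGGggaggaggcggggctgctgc
Fabp7, chr10:57784673-57784880, plus strand: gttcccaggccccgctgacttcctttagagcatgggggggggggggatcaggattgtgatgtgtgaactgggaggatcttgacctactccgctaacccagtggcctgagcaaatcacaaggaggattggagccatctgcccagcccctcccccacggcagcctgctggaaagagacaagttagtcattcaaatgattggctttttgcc
Th, chr7:142900015-142900245, minus strand: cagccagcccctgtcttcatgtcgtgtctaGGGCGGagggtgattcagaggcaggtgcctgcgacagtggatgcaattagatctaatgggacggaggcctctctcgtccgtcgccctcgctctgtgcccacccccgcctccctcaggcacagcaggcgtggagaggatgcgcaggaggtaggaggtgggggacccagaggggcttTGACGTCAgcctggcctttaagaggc

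The Ngfr sequence is GC-rich, with 70.9% G and C, against 56.2% for Fabp7 and 63.6% for Th. In the full 250 bases Ngfr had 4 GC boxes, starting 114, 72, 63 and 16 bases before the start, and 1 E-box at 25 bases. The GC box and E-box nearest the start lie in the part not printed. Th had 1 cyclic AMP response element at 45 bases and 1 GC box at 220 bases, and Fabp7 held none of the motifs. No matches overlapped one another. Among 32851 RefSeq promoters of the same length, 32.7% held a GC box, 13.0% the E-box, 1.55% the cyclic AMP response element and 25.2% a SOX core. A match describes the letters only.

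The libraries held 16761763 to 24144272 expected counts. Nrg1 was not lower in the mutant group, at 4.87 ± 0.636 CPM (counts scaled to library size, SD, n = 4) among WT and 6.17 ± 0.611 CPM (SD, n = 4) in mutant libraries. Its log2 fold change (mutant minus WT, as for every such value here) was 0.34, with a 95% confidence interval of 0.08 to 0.60 and an edgeR adjusted p of 0.311. Gene-level counts include reads outside the floxed part, and the mutant libraries are called labeled-mutant libraries below. The cardiomyocyte gene Tnnt2 was at 5594.7 CPM among WT and 5529.7 CPM in labeled-mutant libraries. Summed Y-linked transcripts were at 69.3 to 171 CPM among WT and 42.9 to 120 CPM in labeled-mutant libraries. The transcript Xist of female cells was at 0.176 to 206 CPM among WT and 103 to 327 CPM in labeled-mutant libraries, so 7 of the 8 libraries held both kinds at appreciable levels although each was labeled as 1 ventricle.

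Ngfr was lower in every labeled-mutant library than in every WT library. Its level was 3.38, 3.58, 4.52 and 4.0 CPM across WT libraries 1 to 4 and 2.43, 3.36, 2.75 and 1.88 CPM in labeled-mutant libraries 1 to 4. The gap was narrow, since the lowest WT value and the highest labeled-mutant value differed only in the second decimal. These levels rest on 73 to 104.32 expected counts per WT library and 32.01 to 80 per labeled-mutant library. The means were 3.87 ± 0.506 CPM (SD, n = 4) and 2.6 ± 0.616 CPM (SD, n = 4), a difference of 32.8% and a log2 fold change of -0.55 (SE 0.175). In RNA from whole ventricles, fewer cells of a type and less RNA per cell cannot be told apart. Ngfr (ENSMUSG00000000120, chr11:95568818-95587735, GRCm38, minus strand, 6 exons) was a low gene in this tissue, above only 21.8% of the tested genes.

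Labeled-mutant library 2 and labeled-mutant library 4 had the highest and lowest Ngfr of their group. The same libraries had the lowest and highest Y-linked sum of that group, 42.9 and 120 CPM. They were also the deepest and shallowest libraries, with 24144272 and 16761763 expected counts. The WT libraries did not run this way. WT library 2 had the lowest sum, 69.3 CPM, and WT library 4 the highest, 171 CPM, with Ngfr at 3.58 and 4.0 CPM. With the Y-linked sum as a covariate the Ngfr log2 fold change was -0.73, and without labeled-mutant library 4 it was -0.44. The part of Y-linked level or of depth in the result was otherwise not tested. Across 15 alternative fits Ngfr was lower in all 15.

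Among the glial members, Fabp7 was lower in most labeled-mutant libraries and Sox10 was too sparse to place. Fabp7 (ENSMUSG00000019874, chr10:57784881-57788450) was at 2.78, 3.75, 4.0 and 4.0 CPM across WT libraries 1 to 4 and 2.98, 2.27, 2.47 and 2.47 CPM in labeled-mutant libraries 1 to 4. The groups overlapped, because WT library 1 lay below labeled-mutant library 1. The mean was 3.63 ± 0.582 CPM (SD, n = 4) among WT and 2.55 ± 0.306 CPM (SD, n = 4) in labeled-mutant libraries, with a log2 fold change of -0.51 (SE 0.159). Fabp7 was lower in all 15 alternative fits, from -0.62 to -0.46. The libraries ranked differently for Fabp7 and Ngfr: labeled-mutant library 2, the highest of its group for Ngfr, was the lowest for Fabp7.

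Sox10 (chr15:79154908-79165240), the defining factor of the lineage, had 6, 3, 13 and 13 counts in WT libraries and 7, 12, 4 and 4 in labeled-mutant libraries. The groups overlapped fully, and the spread within each was wider than the difference between them. The sums were 35 counts in WT and 27 in labeled-mutant libraries. The ratio of the groups, scaled to library totals, was 0.845, with a 95% interval of 0.492 to 1.44. Such intervals cover counting error only. A ratio as low as that of Ngfr, 0.687, lies inside this interval, so these counts cannot show whether Sox10 differed as Ngfr did.

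The enzymes of noradrenaline synthesis were not lower in the labeled-mutant group. Th (chr7:142892752-142931128) had 0, 0, 1 and 4 counts in WT libraries and 0, 12, 0 and 1 in labeled-mutant libraries. All but 1 of the 13 labeled-mutant counts came from library 2, at 0.503 CPM. A library with 0 counts still allows up to 3 counts, which is 0.126 to 0.177 CPM at these depths. The ratio of the groups was 2.85 (0.953 to 10.2) and rested on that library, without which the labeled-mutant sum was 1 count.

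Dbh (chr2:27165233-27183200) was at 0.601, 0.662, 0.695 and 0.791 CPM in the WT libraries, against 1.11, 1.22, 0.606 and 0.765 CPM in labeled-mutant libraries. Labeled-mutant libraries 1 and 2 lay above all WT libraries, and libraries 3 and 4 lay within the WT range. The mean was 0.687 ± 0.0791 CPM (SD, n = 4) among WT and 0.925 ± 0.287 CPM (SD, n = 4) in labeled-mutant libraries, with a log2 fold change of 0.43 (SE 0.278). Dbh was higher in all 14 alternative fits that retained it, from 0.26 without labeled-mutant library 2 to 0.60.

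The axonal and neuronal members differed from each other. Prph (chr15:99055174-99058978) had 9, 6, 10 and 8 counts in WT libraries and 9, 16, 10 and 9 in labeled-mutant libraries. In CPM it was higher without overlap, at 0.265 to 0.435 in WT and 0.455 to 0.671 in labeled-mutant libraries. Its ratio was 1.46, with a counting interval of 0.909 to 2.37. Tubb3 (chr8:123411424-123422015) was at 1.34, 1.19, 1.61 and 1.41 CPM in the WT libraries, against 0.758, 1.8, 1.03 and 1.71 CPM in labeled-mutant libraries. The labeled-mutant libraries lay on both sides of the WT range, with means of 1.39 ± 0.172 CPM (SD, n = 4) and 1.32 ± 0.512 CPM (SD, n = 4). Its log2 fold change of -0.07 (SE 0.27) became -0.27 without labeled-mutant library 2 and 0.12 without labeled-mutant library 1.

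**Figure D1:**
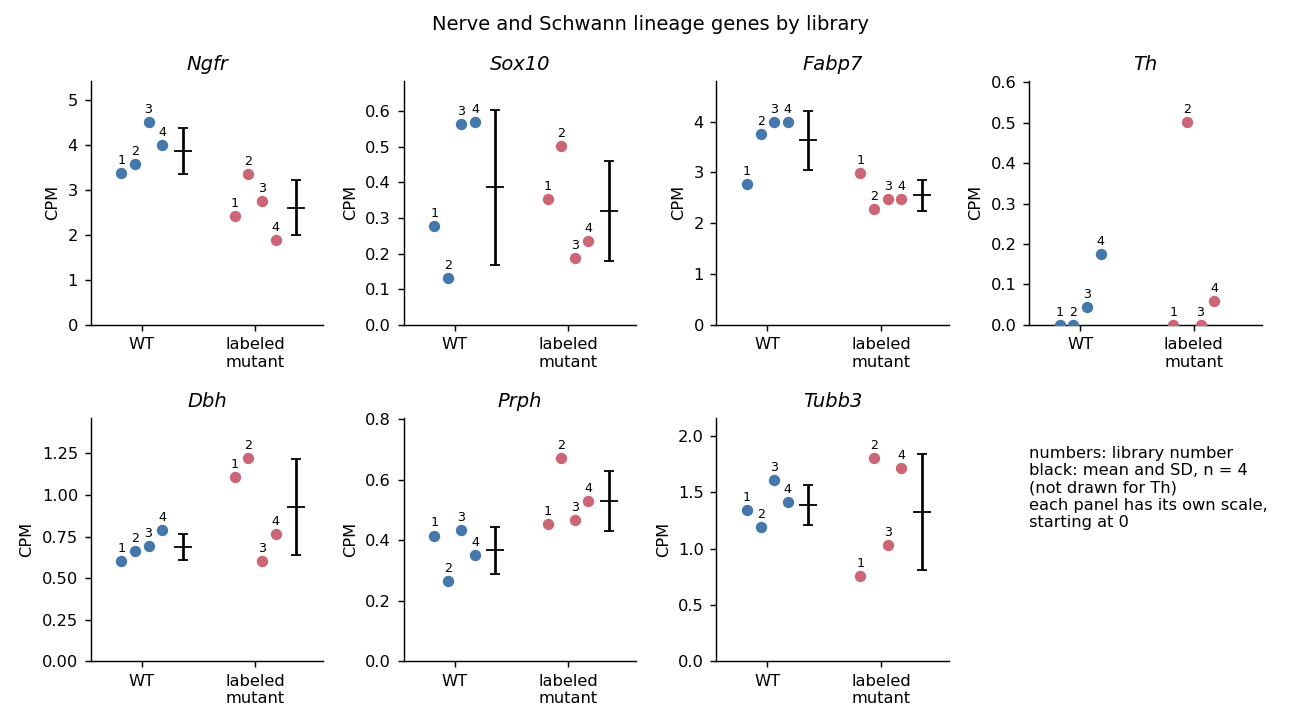
CPM of the 7 genes in each library, with library numbers beside the points; black marks are the mean and SD of 4 libraries, not drawn for Th. Ngfr is lower without overlap, Prph higher without overlap, and the other 5 overlap; labeled-mutant library 2 is the highest of its group in 6 of the 7 panels.

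Labeled-mutant library 2 was the highest of its group in 6 of the 7 members, with Fabp7 as the exception. Without it the labeled-mutant mean was 2.35 ± 0.439 CPM (SD, n = 3) for Ngfr, 0.828 ± 0.259 CPM (SD, n = 3) for Dbh and 1.16 ± 0.489 CPM (SD, n = 3) for Tubb3. The sparse counts of Sox10 then summed to 15.

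Compared per kilobase of exons, the order of mean level in WT was Fabp7 (2.9 CPM per kilobase), Ngfr (1.12), Tubb3 (0.742), Dbh (0.255), Prph (0.183), Sox10 (0.127) and Th (0.0232). The ranges of Prph and Sox10 and those of Sox10 and Th overlapped, and the other neighbors did not. In labeled-mutant libraries the order was the same, from Fabp7 (2.04 CPM per kilobase) through Ngfr (0.756), Tubb3 (0.709), Dbh (0.344), Prph (0.265) and Sox10 (0.105) to Th (0.0595). There Ngfr overlapped Tubb3, Tubb3 overlapped Dbh, Dbh overlapped Prph and Sox10 overlapped Th.

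Of the 7 members, 4 had enough counts to enter the fit over 15388 genes, namely Ngfr, Fabp7, Dbh and Tubb3. None of the 4 was called at a false discovery rate (FDR) of 0.05 with edgeR, beside 0.526% of all tested genes, and none with DESeq2. With either tool 2 of the 4, Ngfr and Fabp7, were lower at an unadjusted p below 0.05, beside 5.41% of tested genes with edgeR. Among tested genes, 2.98% were lower and 3.07% higher without overlap between the groups, as Ngfr and Prph were, though Prph did not enter the fit. The members were chosen with this contrast in view, and nothing is read from these counts.

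The wider Schwann and glial list held 20 further genes, of which 11 could be tested. None was called with edgeR or DESeq2, none passed an unadjusted p below 0.05, and the median log2 fold change was -0.04, against a median of 0 over all tested genes. Erbb3, the receptor through which glia sense neuregulin-1, was at 16.0 ± 1.33 CPM (SD, n = 4) among WT and 17.3 ± 1.74 CPM (SD, n = 4) in labeled-mutant libraries. Its log2 fold change was 0.12, with a 95% interval of -0.06 to 0.30 (edgeR adjusted p = 0.67).

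Other tested genes of the glial list were close to 0 or not called. The periaxin gene Prx (-0.09), the myelin gene Mal (-0.07), the hedgehog ligand Dhh (-0.21) and the myelin regulator Egr2 (-0.17) had log2 fold changes whose 95% intervals all included 0. The summed level of the list was 57.0 to 62.8 CPM among WT and 56.5 to 61.3 CPM in labeled-mutant libraries. Defining early markers were near the floor: Foxd3, Sox2 and Gfra3 had at most 3 counts in every library. Cdh19, at 0.353 ± 0.152 CPM among WT and 0.315 ± 0.115 CPM in labeled-mutant libraries (SD, n = 4 each), and S100b, at 0.254 ± 0.152 and 0.224 ± 0.0953 CPM (SD, n = 4 each), did not enter the fit. Erbb3 is also made by heart valve mesenchyme and epicardial cells, and Prx by endothelial cells, so the list's sum is not a measure of glia alone.

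**Figure D2:**
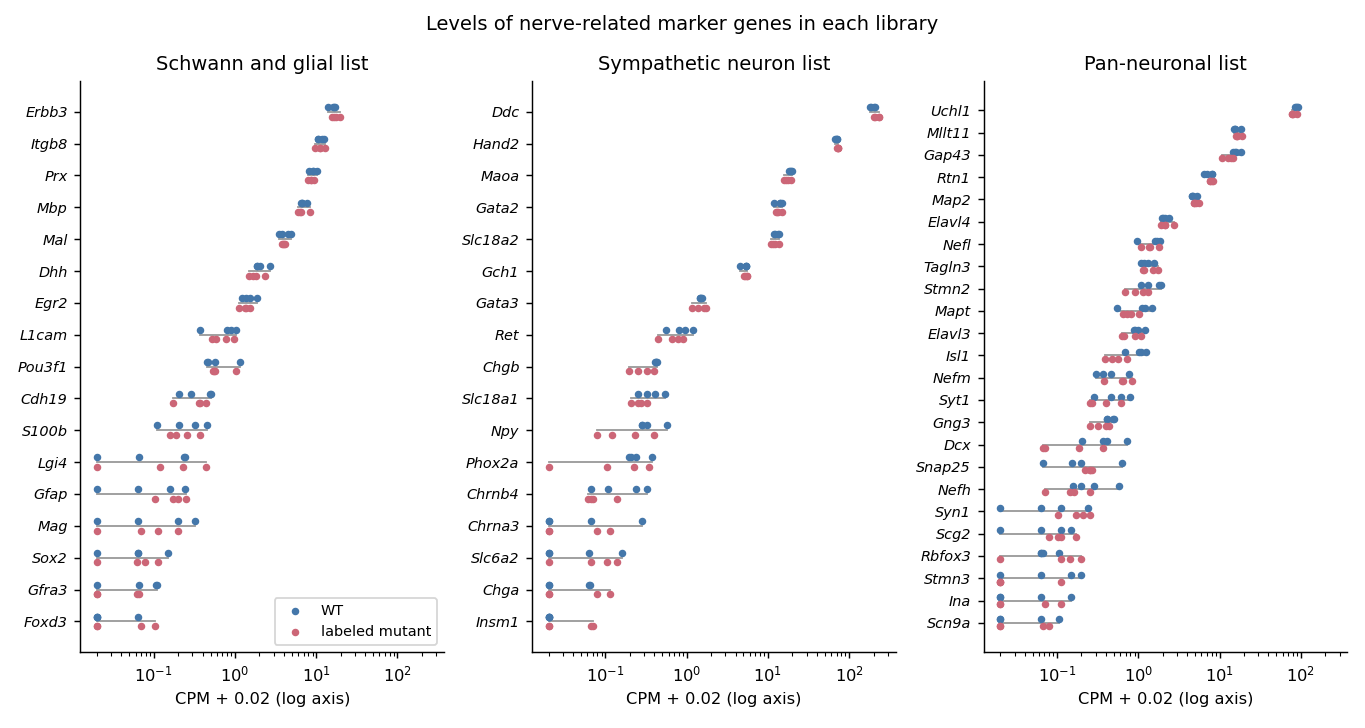
Level of each gene of 3 marker lists in the 4 WT and 4 labeled-mutant libraries, as CPM plus an offset of 0.02 on a log axis, with genes ordered by mean level; 3 genes of the Schwann and glial list and 3 of the sympathetic list are not drawn. WT and labeled-mutant points intermix for most genes. Some markers, such as Foxd3 and Insm1, sit at or near the offset, which stands for 0 counts. Others, such as the pan-neuronal genes Elavl4 and Stmn2, lie well above it in every library.

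Sympathetic markers ranged from abundant to barely detected. Of 20 genes 8 were tested, none was called with edgeR or DESeq2, and the median log2 fold change was -0.01. At an unadjusted p below 0.05, 1 gene was higher, beside 5.13% of all tested genes. That gene was Ddc, the decarboxylase of catecholamine synthesis, which developing heart muscle also expresses. It was at 194.9 ± 13.4 CPM (SD, n = 4) among WT and 218.5 ± 16.7 CPM (SD, n = 4) in labeled-mutant libraries, a log2 fold change of 0.17 (edgeR adjusted p = 0.311). Hand2 (0.06), a transcription factor of heart and sympathetic neurons, Maoa (-0.12), a monoamine oxidase, and the receptor gene Ret (-0.34) were not called.

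Some genes that mark sympathetic neurons were barely detected. The transcription factor gene Insm1 had 0 or 1 count per library. The noradrenaline transporter gene Slc6a2 had at most 3.1 expected counts, and Npy, a cotransmitter of these neurons, 1 to 12. Npy averaged 0.347 ± 0.14 CPM (SD, n = 4) among WT and 0.186 ± 0.14 CPM (SD, n = 4) in labeled-mutant libraries, with overlap. The level of Dbh thus stood beside very low levels of Insm1, Slc6a2 and Npy in both groups. Other genes of the list were higher. Slc18a2 averaged 12.8 CPM among WT and 12.0 CPM in labeled-mutant libraries, Gch1 5.12 and 5.35 CPM, and Gata3 1.48 and 1.47 CPM. Of 5 further genes that could mark other catecholamine-producing cells, 1 was tested and it was not called.

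In the cholinergic list 4 of 10 genes were tested and 1 was called lower with edgeR, beside 0.214% of all tested genes. Chat, which encodes the enzyme that makes acetylcholine, and Hmx3 were at 0 counts in all 8 libraries. Ache, whose product acetylcholinesterase breaks acetylcholine down, was at 9.3, 9.63, 9.08 and 11.3 CPM in the WT libraries, against 5.61, 4.78, 5.78 and 7.71 CPM in labeled-mutant libraries. All labeled-mutant values lay below all WT values, and Ache fell by 0.73 on the log2 scale (SE 0.132, edgeR adjusted p = 0.0373). The call held in 7 of 15 alternative fits, over which the adjusted p ranged from 6.87e-05 to 0.206. It was lost without any 1 of 7 libraries, all but labeled-mutant library 4, and with the Y-linked covariate, where the log2 fold change was -0.51. Slc5a7, the choline transporter gene, had a log2 fold change of 0.40 (edgeR adjusted p = 0.336), and Gfra2, a neurturin receptor gene, and Tbx3, a conduction system factor, had -0.15 each. Ache is also expressed by muscle and blood cells.

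The pan-neuronal list held 24 genes, of which 13 were tested. Of these 13, 4 were lower at an unadjusted p below 0.05, a larger share than the 5.41% over all tested genes. None was called with edgeR or DESeq2. Isl1, a factor of neurons and of heart progenitors, was at 1.06, 0.662, 1.22 and 1.01 CPM in the WT libraries, against 0.455, 0.545, 0.373 and 0.706 CPM in labeled-mutant libraries. The groups overlapped slightly, with a log2 fold change of -0.94 (SE 0.294, edgeR adjusted p = 0.241). Stmn2, a regulator of axonal microtubules, averaged 1.51 ± 0.394 and 0.991 ± 0.271 CPM (SD, n = 4 each), a log2 fold change of -0.63 (edgeR adjusted p = 0.431). With the Y-linked covariate this value was -0.13.

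Gap43, a growth cone protein gene, averaged 16.2 ± 1.59 CPM among WT and 13.1 ± 1.66 CPM in labeled-mutant libraries (SD, n = 4 each), a log2 fold change of -0.31 (edgeR adjusted p = 0.229). Uchl1, a neuronal deubiquitinase gene, was the highest of the list per kilobase, with a log2 fold change of -0.13 (edgeR adjusted p = 0.30). Mllt11 had 0.07, and the axonal tau gene Mapt -0.44 (edgeR adjusted p = 0.671). Of the 13 tested genes 7 were lower, a share of 53.8% against 50.6% of all tested genes, and the median log2 fold change was -0.11. The summed level was 140.5 to 149.2 CPM among WT and 129.1 to 147.9 CPM in labeled-mutant libraries.

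**Figure D3:**
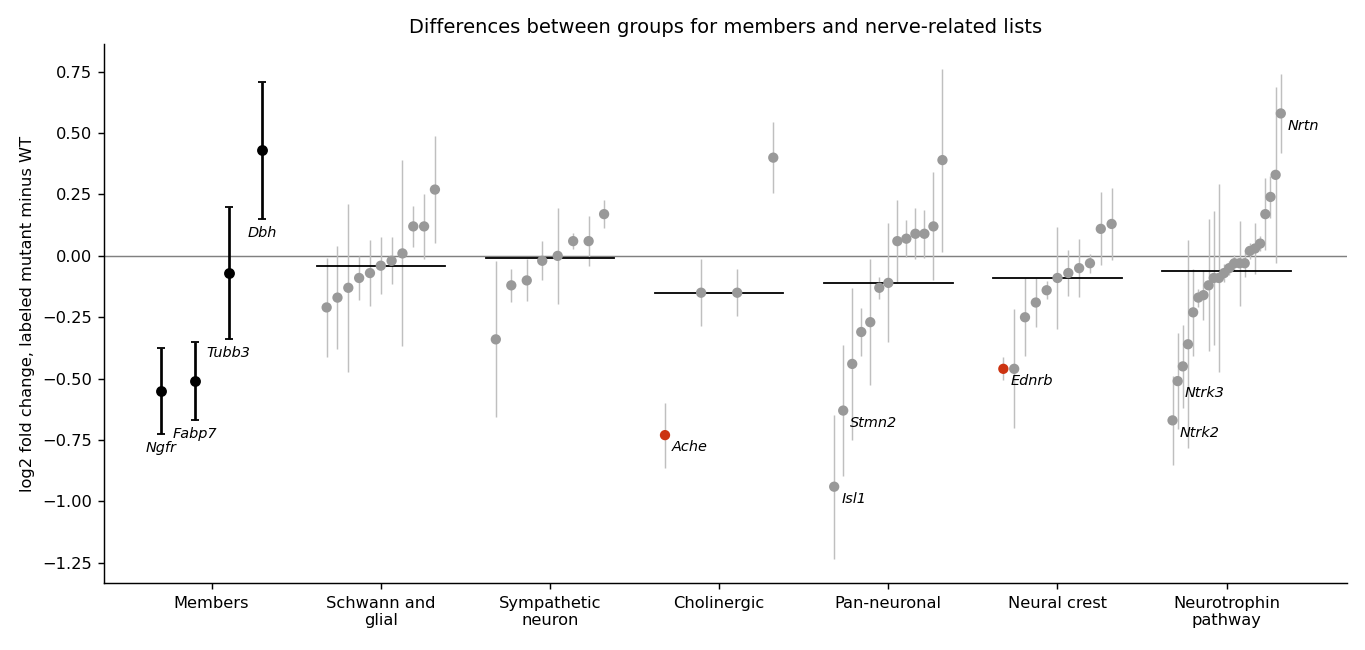
Log2 fold change (labeled mutant minus WT) of the 4 members that entered the fit and of the tested genes of 6 nerve-related lists; bars are SE, black lines the list medians, and red points genes called at an FDR of 0.05. Among the lists only Ache and Ednrb are red, and the list medians lie between -0.15 and -0.01.

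Of the 14 neural crest genes 11 were tested and 1 was called, beside 0.526% of all tested genes. Of the tested crest genes 9 (81.8%) had a log2 fold change below 0, against 50.6% of all tested genes. That share was 83.3% in each of the mural, fibroblast and endothelial lists described below. Ednrb, the endothelin receptor B gene, which is needed by crest cells and is also expressed in endothelial cells, was at 93.8 to 106.1 CPM among WT and 68.1 to 77.7 CPM in labeled-mutant libraries. It fell by 0.46 on the log2 scale (edgeR adjusted p = 0.0021) and was called in all 15 alternative fits. Ets1, a crest and endothelial factor, had -0.14 (edgeR adjusted p = 0.135), Crabp1 -0.46 (edgeR adjusted p = 0.55), the melanoblast gene Dct -0.25 and Mitf -0.03. The crest specifiers Tfap2b and Pax3 had at most 1 and 4 counts in any library. The summed level of the list was 336.0 to 349.1 CPM among WT and 286.0 to 311.9 CPM in labeled-mutant libraries, and Ednrb and Ets1 made up most of it.

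A list of 23 genes, of which 22 were tested, held neurotrophins, their receptors and partners of p75NTR. It also held Gdnf, Nrtn and Artn, ligand genes of the GDNF family, and the receptor gene Gfra1 of that family. None of the 22 was called with edgeR or DESeq2, and the median log2 fold change was -0.06. At an unadjusted p below 0.05, 2 were higher and 4 lower, beside 5.13% and 5.41% of all tested genes. Over all 6 nerve-related lists 69 of 111 genes were tested and 2, Ache and Ednrb, were called lower, beside 0.214% of all tested genes, and none higher. Among the ligands, Ntf3, which encodes neurotrophin-3, had -0.45 (edgeR adjusted p = 0.352).

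The receptor gene Ntrk2, which encodes the BDNF receptor TrkB, was at 3.38, 3.53, 5.34 and 5.27 CPM in the WT libraries, against 2.63, 2.6, 2.57 and 3.3 CPM in labeled-mutant libraries. It was lower without overlap, with a log2 fold change of -0.67 (SE 0.18, edgeR adjusted p = 0.144), but was not called, and it was -0.39 with the Y-linked covariate. Ntrk3, the neurotrophin-3 receptor gene, had -0.51 (edgeR adjusted p = 0.368). Nrtn, which encodes neurturin, a ligand of the GDNF family and not of p75NTR, had 0.58 (edgeR adjusted p = 0.161). Sorcs2, a coreceptor of p75NTR, was at 48.2 to 49.9 CPM among WT and 41.2 to 45.3 CPM in labeled-mutant libraries, with a log2 fold change of -0.17 (edgeR adjusted p = 0.0598). Of the abundant intracellular partners, Bex3 had a log2 fold change of 0.05, Maged1 of -0.03 and Arhgdia of -0.05.

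Other cell types that can hold Ngfr transcripts were measured with the same fit. No gene of the epicardial, mural, fibroblast or endothelial lists, 12 genes each, was called with edgeR. At an unadjusted p below 0.05, 2 epicardial genes were higher and 0 lower, 1 mural gene was higher and 4 lower, 0 fibroblast genes were higher and 5 lower, and 1 endothelial gene was higher and 5 lower. Over all tested genes these shares were 5.13% higher and 5.41% lower, so the mural, fibroblast and endothelial lists held larger shares of lower genes than the whole table. DESeq2 called 6 genes of these lists, beside 195 of all 15388 tested genes. Acta2 (mural) was higher, and Postn, Vcan and Fbln1 (fibroblast) and Kdr and Tie1 (endothelial) were lower. The median log2 fold changes were 0.08, -0.11, -0.13 and -0.07 in that order. Summed endothelial markers were at 1688.4 to 1743.4 CPM among WT and 1567.7 to 1692.6 CPM in labeled-mutant libraries, and summed mural markers at 2145.8 to 2268.7 and 2210.6 to 2326.2 CPM. All 8 atrial genes had log2 fold changes below 0, with a median of -0.15 and none called with edgeR or DESeq2, and macrophage (0.03), cardiomyocyte (0.01) and erythroid (0.13) medians lay near or above 0. In the cardiomyocyte list, edgeR called none and DESeq2 called Myh6 lower (log2 fold change -0.19 in the edgeR fit). The part of any of these cell types in the Ngfr level was not tested.

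To examine Ngfr without the contrast that chose it, its deviations from the group mean were compared with those of 8 lists over the 8 libraries. Each list was the mean log2 level of its tested genes, libraries were permuted within groups (576 permutations, two-sided), and p-values were adjusted over the 8 lists. No relation to the Schwann and glial list passed the test, where Pearson's r was -0.10 (exact permutation p = 0.79, 0.79 after adjustment) while Spearman's rho was -0.12 (exact permutation p = 0.799, 0.913 after adjustment). Without the 2 libraries farthest from the list's median, r was -0.61. The sympathetic list gave r of -0.41 (exact permutation p = 0.372, adjusted 0.722; rho -0.33, exact permutation p = 0.469, adjusted 0.766), and -0.38 without 2 libraries. For the pan-neuronal list r was -0.48 (exact permutation p = 0.276, adjusted 0.722) and rho -0.31 (exact permutation p = 0.495, adjusted 0.766), and r was -0.05 without 2 libraries.

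The neural crest list ran opposite to Ngfr. Its r was -0.96 and its rho -1.0, each with an exact permutation p of 0.00174, the smallest that the 576 permutations can give (adjusted 0.0139), and r was -0.94 without the 2 farthest libraries. Ranked by deviation from their group's mean, the 8 libraries thus ran in opposite orders for Ngfr and the crest list. The crest specifiers Tfap2a, Tfap2b and Pax3 did not enter the fit, so the list's mean holds none of them. It is not a measure of crest cells alone. With the summed CPM of the list, in which Ednrb and Ets1 weigh most, r was -0.69 (exact permutation, adjusted p = 0.583). Among the 9 tested genes of the list with a mean log2 CPM of at least 1, r with Ngfr ran from -0.86 for Twist1 to 0.18 for Mitf. Over such genes of the other nerve-related lists, r ran from -0.89 for Maoa to 0.63 for Rhoa. Strongly negative values were therefore not particular to crest genes. The mural (r 0.27), epicardial (-0.49), fibroblast (-0.23) and endothelial (-0.34) lists gave exact permutation p-values of 0.464, 0.377, 0.663 and 0.542, adjusted 0.722, 0.722, 0.758 and 0.722. Their rho values were 0.48, -0.29, -0.02 and -0.43, with exact permutation p-values of 0.259, 0.575, 0.979 and 0.358, adjusted 0.766, 0.766, 0.979 and 0.766. Without 2 libraries each, r was 0.56, 0.20, 0.79 and 0.04, so the sign of the last 3 rested on the libraries left out.

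**Figure D4:**
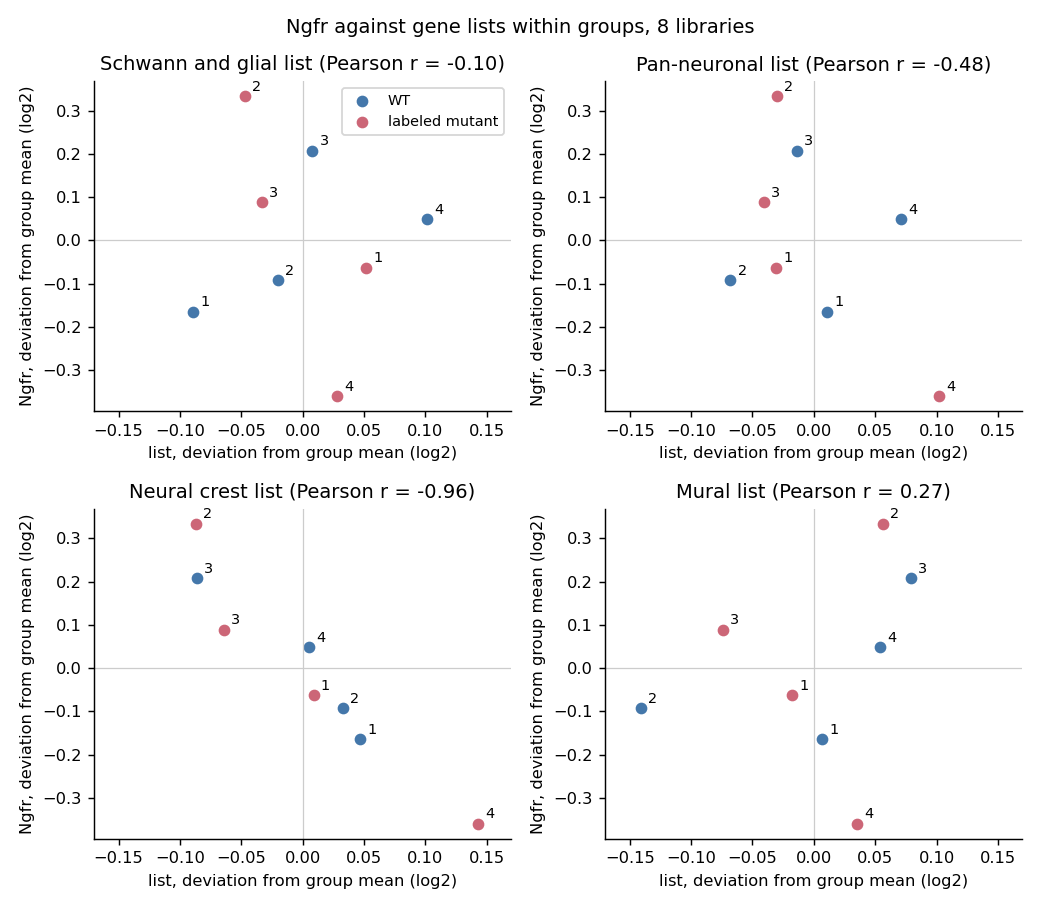
Deviation of Ngfr from its group mean against that of 4 gene lists, both on the log2 scale, with 1 point per library and library numbers beside the points. The neural crest points fall along a descending line (r of -0.96), while the Schwann and glial, pan-neuronal and mural points show no such order (r of -0.10, -0.48 and 0.27).

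Among 12856 genes with a mean log2 CPM of at least 1, those whose deviations were most like Ngfr over the 8 libraries were Gng2 (r 0.977), Rab29 (0.971), Ndrg2 (0.964), Lmbrd1 (0.963) and Atp5e (0.960). These r values are the highest of 12856 over only 8 libraries and were not tested against chance. The log2 fold changes of these genes between the groups lay between -0.07 and 0.01, and none belongs to the lists above. Gng2 encodes a G protein gamma subunit, Rab29 a small GTPase, Lmbrd1 a lysosomal membrane protein of cobalamin transport and Atp5e a subunit of ATP synthase. Fabp7 stood at rank 5209 (r 0.13) and Erbb3 at rank 3944 (0.27). Fabp7 and Erbb3 were not among the genes closest to Ngfr in these libraries, which share depth and RNA source within each sample.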

How the data were processed

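RNA-seq of 8 ventricle libraries was analyzed, 4 WT and 4 labeled Nrg-1flox;Cdh5-CreERT2, grouped by their genotype labels. Expected counts from RSEM, 1 value per gene and library, were deposited by the authors (Ensembl release 91 by the table's name). These are estimates in which reads matching several genes are divided, and 18.1% of the values were not whole. The submitters' processing notes name cutadapt, RSEM 1.3.1 and GRCm38. The aligner and the strand setting are not given in the sources used here, although the library kit is directional. Library totals were 16761763 to 24144272 expected counts.

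Expected counts were rounded to whole numbers, filtered with filterByExpr by group (15388 genes) and scaled by TMM. Groups were compared with edgeR 4.0.16 (glmQLFit, glmQLFTest, two-sided) in R 4.3.3, and p-values were adjusted by Benjamini-Hochberg over every tested gene, with an FDR of 0.05. CPM values use the rounded counts and the TMM factors. Symbols and exonic lengths came from GENCODE M21 (53360 of 53465 identifiers matched). Ratios of sums have exact 95% intervals for counting error. Relations within groups used log2 of CPM with a pseudocount of 0.5. The fits were tested on simulated data. Plots used matplotlib 3.10.9 (Python 3.11.15).

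The members and lists were chosen with earlier results of these data known. Named genes were the members, Nrg1, every called list gene, in each nerve-related list the 3 highest per kilobase and the 3 that differed most in either direction, defining markers at or near 0, and the 5 genes most like Ngfr. Ntf3, Sorcs2, Twist1, Tnnt2 and the genes called only by DESeq2 were picked outside this rule, after their values were seen. Some genes under the rule are not reported here. Alternatives were RLE and total scaling, no filter, a minimum of 1 CPM in 4 libraries, DESeq2 1.42.0, a replicate block, a Y-linked covariate, leaving out each library, and summed CPM for lists. The main fit did not pair samples by replicate number. The p-values measure the spread between these libraries.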

Additional observations from a re-analysis of the deposited data

Results flagged for a closer look

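Among 26 groups of 4 values that were examined (the members and summed lists in each group), 3 held a value standing apart from its group. By chance about 1 group in 20 does so, or 1.3 of them. Th was at 0.503 CPM in labeled-mutant library 2, against 0, 0 and 0.0589 CPM in the other labeled-mutant libraries. The summed cholinergic list was at 28.7 CPM in labeled-mutant library 4, against 23.3, 23.3 and 23.9 CPM. The summed neural crest list was at 349.1 CPM in WT library 1, against 336.0, 336.7 and 337.0 CPM.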

How the results depend on the processing

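The log2 fold changes of Ngfr, Fabp7 and Dbh kept their direction in every alternative fit that gave one, and no member was called in any. Ngfr was at -0.70 to -0.44 when each library was left out in turn, and Tubb3 changed sign. Over all genes, the 81 calls (48 higher, 33 lower) became 338 (154 and 184) with no filter, 195 (102 and 93) with DESeq2, 16 (12 and 4) with the Y-linked covariate and 11 to 142 (6 to 61 higher, 5 to 81 lower) without each library. The lowest count was that without labeled-mutant library 3, and the highest that without labeled-mutant library 4; the cause was not tested. Calls in the nerve-related lists numbered 2, but 8 with no filter (adding Ddc, Ets1, Gap43, Nrtn, Ntrk2 and Sorcs2), 1 with the Y-linked covariate and 1 to 3 without each library. Deviations from the group mean in same-numbered WT and labeled-mutant samples correlated by 0.0447 to 0.121 over genes. Samples of different numbers gave -0.0877 to 0.0195, below every same-numbered pair. The labels name no batch or litter, and what same-numbered samples share was not tested. With a replicate block there were 93 calls (51 higher, 42 lower), Ngfr was at -0.57, and Ache and Ednrb were called. For the relations within groups, the sympathetic r was 0.30 and the neural crest r -0.69 with summed CPM. Leaving out each library gave r of -0.98 to -0.93 for the neural crest list, each with an adjusted p of 0.0556, the smallest that the permutations of 7 libraries allow over 8 lists. It gave -0.43 to 0.19 for the Schwann and glial, -0.68 to 0.14 for the pan-neuronal, -0.70 to 0.33 for the epicardial, -0.35 to 0.61 for the fibroblast and -0.60 to 0.03 for the endothelial list. Depth limits Sox10, Th and Prph most, with at most 16 counts per library, and the filter left these 3 members out. In the alternatives whose filter kept them, Sox10 had log2 fold changes of -0.53 to -0.05 (6 fits), Prph of 0.41 to 0.63 (8 fits) and Th of 1.34 (1 fit).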
